A study of Mus musculus with 22 samples.

Results

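The miRNAs described here are the guide arms of the miR-23a/27a/24-2 and miR-23b/27b/24-1 clusters. They were chosen by name as the rows for mmu-miR-23a-3p, mmu-miR-23b-3p, mmu-miR-24-3p, mmu-miR-27a-3p and mmu-miR-27b-3p (mmu- for mouse is left out from here), which are 5 of the 1881 mouse miRNAs on the array. Cy3-labelled total RNA was hybridised to 22 one-colour Agilent mouse miRNA arrays, 1 array per sample. The samples were feces, serum prepared from heart blood, and small intestine of male mice aged 8 weeks. The dose of X-rays was 10 Gy at a rate of 1 Gy per minute, and unirradiated mice (0 Gy) were the controls. Feces and intestine had 4 arrays at 10 Gy and 4 at 0 Gy, and serum had 4 arrays at 10 Gy and 2 at 0 Gy. The labels used here give no strain and no time between irradiation and collection, and they are silent on whether each sample stands for another animal. The p-values therefore measure the spread between these samples, which may be in part technical.

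A mature miRNA guides Argonaute proteins to messenger RNAs that pair with its seed, the bases near its 5′ end, and lowers their stability and translation. In mouse, the members come from a pair of paralogous clusters, and the 3 hairpins of a cluster are known to be cut from a shared primary transcript. The clusters encode a miR-23, a miR-27 and a miR-24 each. They are known for roles in blood vessel growth in endothelium, in lipid metabolism and fat cell differentiation (miR-27), and in repression of the DNA damage histone H2AX in differentiated human blood cells (miR-24).

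The mature sequences show how alike the paralogues are, which matters because the values compare them. The RefSeq sequences used here (GRCm38.p6) matched 4 of the 5 members, in 3 seed families. Capitals mark the seed, bases 2 to 8 from the 5′ end.
miR-23a-3p: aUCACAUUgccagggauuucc
miR-27a-3p: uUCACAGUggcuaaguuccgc
miR-27b-3p: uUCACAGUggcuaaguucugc
miR-24-3p: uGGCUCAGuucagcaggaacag
miR-27a-3p and miR-27b-3p have the same seed and differ by 1 substitution, C19U, counted from the 5′ end with the base of miR-27a-3p first. miR-24-3p is encoded by both clusters with the same mature sequence, so its signal cannot be divided between them. The miR-23a cluster spans 404 bases at chr8:84208518-84208921 on the plus strand. The miR-23b cluster spans 792 bases at chr13:63300484-63301275, also on the plus strand, within the gene Aopep.

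Each member had 2 probes of 15 spots each, and no spot on the arrays was saturated. Detection on an array required a probe with 50% of its spots, or more, flagged well above background. Levels are log2 values of the background-subtracted intensity, summed over the probes and divided by the 75th percentile of the array. The intestine arrays detected 332 to 389 miRNAs at 10 Gy and 285 to 300 at 0 Gy. In feces the numbers were 445 to 494 at 10 Gy and 378 to 675 at 0 Gy, and in serum 131 to 176 and 175 to 219. Feces 0 Gy replicate 3 stood apart with the highest of these numbers. Of 10 markers of intestinal epithelium, all were detected on every intestine array and 8 on every feces array, against 1 in serum. Each sample type lay on 1 slide of its own and, within a slide, each dose in columns of its own. Slide cannot be told apart from sample type, nor column from dose, while each slide row held both doses.

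In the small intestine, miR-23a-3p, miR-27a-3p and miR-24-3p were each about 1.5-fold higher at 10 Gy. The ratio was 1.45 for mmu-miR-23a-3p, 1.49 for mmu-miR-24-3p and 1.48 for mmu-miR-27a-3p. For the paralogues mmu-miR-23b-3p and mmu-miR-27b-3p the difference on the log2 scale was -0.01 and -0.07 and did not pass the test. All 5 members were detected on all 8 intestine arrays. The 3 that rose are those of the miR-23a cluster, of which miR-24-3p is also made from the miR-23b cluster.

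miR-23a-3p had levels of 2.05, 1.72, 1.55 and 1.94 on the 4 arrays at 10 Gy, against 1.26, 1.13, 1.34 and 1.38 on those at 0 Gy. Every 10 Gy array lay above every 0 Gy array. The difference was 0.54 ± 0.17 on the log2 scale (SE of the fit, n = 4 per dose, adjusted p = 0.0237 by limma with Benjamini-Hochberg adjustment over 335 miRNAs). miR-24-3p had levels of 2.16, 1.85, 1.68 and 2.00 at 10 Gy, against 1.28, 1.23, 1.39 and 1.49 at 0 Gy. These groups did not overlap either, and the difference was 0.58 ± 0.17 (SE, limma adjusted p = 0.0176). miR-27a-3p had levels of 1.78, 1.36, 1.24 and 1.66 at 10 Gy, against 0.96, 0.78, 1.01 and 1.01 at 0 Gy. Again all 10 Gy arrays were higher, with a difference of 0.57 ± 0.18 (SE, limma adjusted p = 0.022). So 3 of the 5 members rose with this scaling and none fell. Of all 335 miRNAs tested in intestine, 41.8% passed, 26% as rises and 15.8% as falls. Doses did not overlap for 39.4%, with 23.6% higher at 10 Gy on every array and 15.8% lower. Changes of this kind were thus common on these arrays, where the 75th percentile of all changes was 0.57.

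The miR-23b cluster gave another picture. miR-23b-3p had levels of 1.37, 0.97, 0.81 and 1.29 at 10 Gy, against 1.12, 1.07, 1.09 and 1.21 at 0 Gy. Its groups overlapped, and the difference was -0.01 with a 95% interval of -0.39 to 0.37 (limma adjusted p = 0.96). miR-27b-3p had levels of -0.07, -0.30, -0.41 and 0.03 at 10 Gy, against -0.19, -0.17, -0.12 and 0.02 at 0 Gy. These too overlapped, with a difference of -0.07 and a 95% interval of -0.44 to 0.29 (limma adjusted p = 0.759). Replicates 1 and 4 were the higher arrays at 10 Gy for all 5 members, and replicates 2 and 3 the lower ones.

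**Figure D1:**
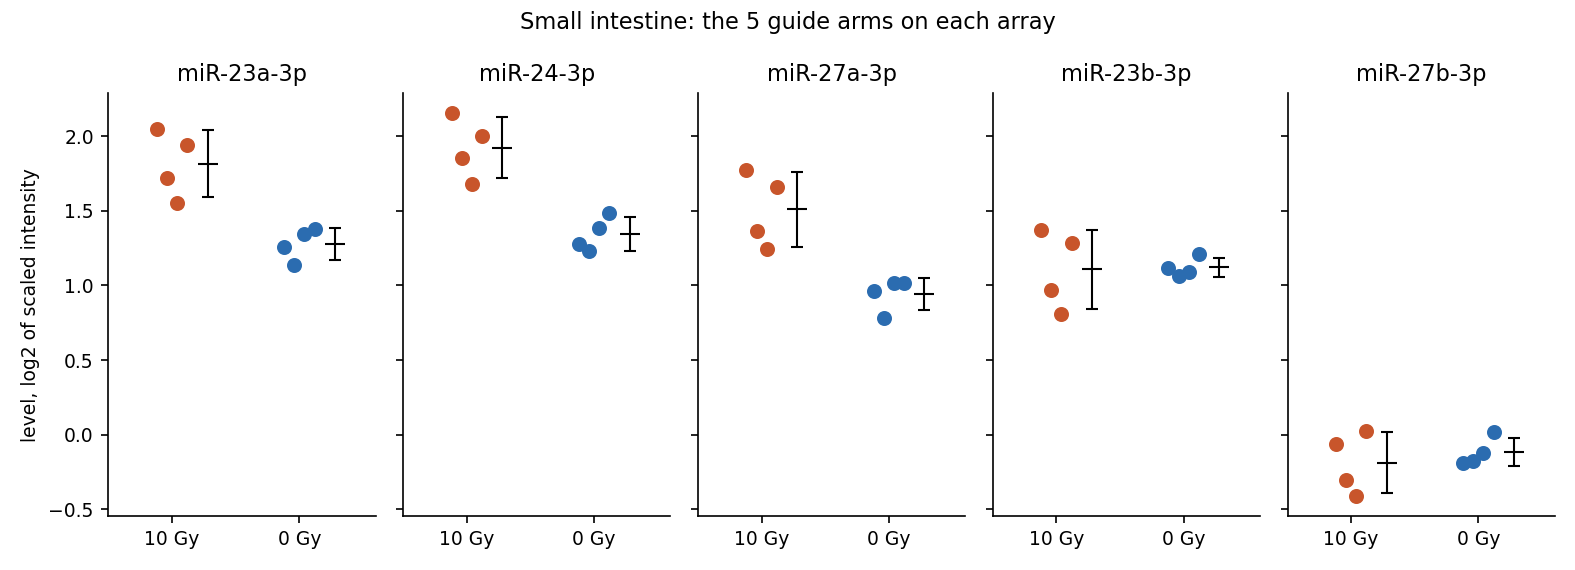
Levels of the 5 guide arms on each small intestine array, as log2 of the scaled intensity, at 10 Gy (left, orange) and 0 Gy (right, blue), with replicates 1 to 4 from left to right and bars for the mean ± SD (n = 4). The 10 Gy points lie above all 0 Gy points for miR-23a-3p, miR-24-3p and miR-27a-3p, and the groups overlap for miR-23b-3p and miR-27b-3p.

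The probes of each member were also compared one by one. The probes of miR-23a-3p differed by 0.47 and 0.56 between doses, those of miR-27a-3p by 0.51 and 0.59, and those of miR-24-3p by 0.59 and 0.57. For miR-23b-3p the probe differences were 0.03 and -0.16, and for miR-27b-3p -0.06 and -0.13.

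The size of each intestinal change depended on how the arrays were scaled. The median change of all miRNAs tested was 0.16 with the 75th percentile over detected miRNAs, 0.01 after quantile normalization, -0.35 with the 75th percentile over all miRNAs and 0.62 without scaling. The split of calls moved with it. There were 87 rises and 53 falls in the first setting, 55 and 66 in the second, 21 and 86 in the third and 186 and 13 without scaling. Over these 4 scalings miR-23a-3p ranged from 0.02 to 1.00, miR-24-3p from 0.06 to 1.04 and miR-27a-3p from 0.05 to 1.03, always positive. With the 75th percentile over all miRNAs, where these values were lowest, none of the 3 passed, and after quantile normalization miR-23a-3p did not (0.36). The change of miR-23b-3p was -0.53 at the lowest and 0.45 without scaling, and that of miR-27b-3p was -0.59 and 0.39, so their direction was not fixed by these data. Relative to the median of all miRNAs tested, the change varied less between scalings. Apart from quantile normalization, these scalings shift all miRNAs of an array alike, so their agreement largely follows from the subtraction. The relative change was 0.36 to 0.38 for miR-23a-3p, 0.42 for miR-24-3p and 0.41 to 0.45 for miR-27a-3p. For miR-23b-3p it was -0.17 to -0.10 and for miR-27b-3p -0.23 to 0.02. With normexp background correction it was 0.68, 0.72 and 0.69 for the first 3, against 0.17 for miR-23b-3p and 0.07 for miR-27b-3p. The sign for miR-23b-3p and miR-27b-3p was thus still not fixed.

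Unscaled signals were higher at 10 Gy for every member, as they were for most miRNAs tested (median change 0.62, 186 rises of 335). The summed processed signal of miR-23a-3p was 2174 to 2582 at 10 Gy and 1049.6 to 1365 at 0 Gy (arbitrary units). For miR-23b-3p it was 1292 to 1618 at 10 Gy and 953 to 1194 at 0 Gy, and for miR-27b-3p 528 to 676 and 385 to 524.

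A difference between 2 miRNAs of the same array does not depend on the scaling factor. The question it addresses is whether the members of one cluster moved apart from those of the other. The difference of miR-23a-3p minus miR-23b-3p was 0.68, 0.75, 0.74 and 0.66 on the 10 Gy intestine arrays, against 0.14, 0.07, 0.25 and 0.17 on the 0 Gy arrays. The groups lay far apart compared with their spread, 0.71 ± 0.05 at 10 Gy and 0.16 ± 0.08 at 0 Gy (SD, n = 4 each). The ratio of the miRNAs was thus 1.46-fold higher at 10 Gy. The difference of miR-27a-3p minus miR-27b-3p was 1.84, 1.67, 1.66 and 1.63 at 10 Gy, against 1.15, 0.96, 1.14 and 0.99 at 0 Gy. The means were 1.70 ± 0.10 and 1.06 ± 0.10 (SD, n = 4 each), a ratio 1.56-fold higher at 10 Gy. Each gave p = 0.0286 in an exact two-sided permutation test, the smallest p that 4 arrays against 4 allow. The tests were chosen with earlier results of these data known, which this p does not take into account. After Benjamini-Hochberg adjustment over 7 such tests in the 3 sample types the exact p was 0.1. Only 4 of the 7 tests set 4 arrays against 4, so no data could have given an adjusted p below 0.05 here, and missing that threshold says nothing about the difference. Within-array differences hold the efficiency of the probes too, so only their change with dose is read here. The share of other miRNA pairs that separate between doses was not counted, and single miRNAs did so for 39.4% of those tested in intestine.

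miR-24-3p followed miR-23a-3p closely. Their within-array difference was 0.11 ± 0.03 at 10 Gy and 0.07 ± 0.04 at 0 Gy (SD, n = 4 each), a change of 0.04 that was not tested.

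**Figure D2:**
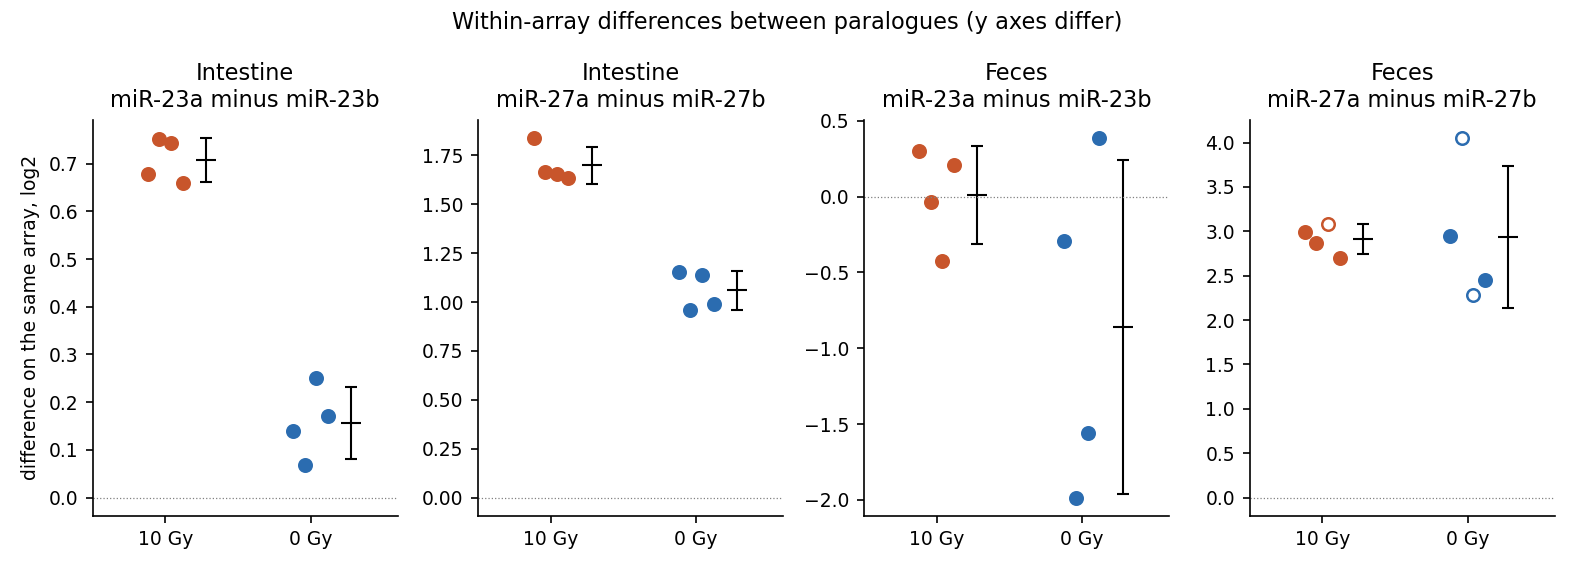
Differences between paralogues on the same array, in log2 units, in small intestine and feces at 10 Gy (left, orange) and 0 Gy (right, blue), with bars for the mean ± SD (n = 4) and a y axis of its own in each panel. Open points mark arrays on which miR-27b-3p was not detected. In intestine the doses separate fully for both pairs, and in feces they overlap. The share of other miRNA pairs that separate was not counted.

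Within slide row 1 the intestinal changes were 0.71 for miR-23a-3p, 0.77 for miR-24-3p and 0.72 for miR-27a-3p, against 0.10 for miR-23b-3p and 0.02 for miR-27b-3p. Within row 2 they were 0.41, 0.43 and 0.46, against -0.08 and -0.12. With 2 arrays per dose none passed within a row. Leaving out 1 array at a time, miR-24-3p passed in 7 of 8 fits, miR-27a-3p in 5 and miR-23a-3p in 4. miR-24-3p was lost without 0 Gy replicate 2, miR-27a-3p without 0 Gy replicates 2 or 3 or 10 Gy replicate 4, and miR-23a-3p without 0 Gy replicates 1, 2 or 3 or 10 Gy replicate 4. The highest adjusted p without 1 array was 0.0607 for miR-24-3p, 0.0789 for miR-27a-3p and 0.0834 for miR-23a-3p, each without 0 Gy replicate 2 (limma).

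Over the 8 intestine arrays, the members fell into 2 groups by their course. The levels of miR-23a-3p, miR-24-3p and miR-27a-3p correlated with each other at Pearson r from 0.984 to 0.996, and those of miR-23b-3p and miR-27b-3p at 0.901. Between the groups r was 0.149 to 0.448. These values describe 8 arrays that share a slide and a scaling, and 2 doses. Apart from members, the miRNAs most like miR-23a-3p were miR-199b-5p (r = 0.980), miR-497a-5p (0.978) and miR-130a-3p (0.975). Those most like miR-24-3p were miR-379-5p, miR-497a-5p and miR-199b-5p (r = 0.978 to 0.980), and those most like miR-27a-3p were miR-125b-5p (0.980), miR-199b-5p and miR-221-3p (0.966 each). miR-23b-3p was nearest to let-7a-5p (0.950), let-7c-5p (0.939) and miR-185-5p (0.934). For miR-27b-3p they were miR-98-5p (0.985), miR-30b-5p (0.935) and let-7f-5p (0.930).

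Marker miRNAs of several cell types moved on the same arrays, where 26% of all 335 miRNAs tested rose and 15.8% fell. The marker counts are given only for the scaling over detected miRNAs. The split of all rises and falls moved with the scaling, so these counts may too. Of 8 smooth muscle and mesenchyme markers, 4 rose and none fell, with a median change of 0.37. The 4 were miR-125b-5p (0.49), miR-199a-3p (0.80), miR-199a-5p (0.82) and miR-214-3p (1.03), all known from mesenchymal cells. The summed scaled intensity of that list was 8.81 to 12.4 at 10 Gy and 7.24 to 8.79 at 0 Gy. Of 4 endothelium markers 2 were tested and none passed. Both were higher at 10 Gy on every array, as were 23.6% of all 335 miRNAs tested. These were miR-126a-3p, made from the endothelial gene Egfl7, with a change of 0.44 (limma adjusted p = 0.0627), and miR-221-3p with 0.41 (adjusted p = 0.0687). Their summed intensity was 2.74 to 4.33 at 10 Gy and 2.47 to 2.70 at 0 Gy.

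With the same scaling, 15.8% of all miRNAs tested in intestine fell and 26% rose. Of 10 intestinal epithelium markers, 5 fell and none rose, with a median change of -0.62. Examples are miR-200b-3p (-0.79) and miR-200c-3p (-0.79) of the epithelial miR-200 family, miR-141-3p (-0.63) and miR-192-5p (-0.61), an enterocyte miRNA. The list summed to 51.3 to 94.5 at 10 Gy and 101.5 to 142.7 at 0 Gy. Of 6 leukocyte markers 3 fell and 1 rose, with a median of -0.55. miR-150-5p of mature lymphocytes was detected on 1 of 4 arrays at 10 Gy and 4 of 4 at 0 Gy, so its change of -2.32 is limited by the floor. The change was -1.04 for miR-142a-3p and of like size for miR-142a-5p, and miR-223-3p of neutrophils and other myeloid cells was 2.30-fold higher at 10 Gy. Of 3 erythrocyte markers 2 were tested, and miR-486a-5p passed as higher. It was detected on 4 of 4 arrays at 10 Gy and 0 of 4 at 0 Gy, so no size is given. It thus met the detection filter through its 10 Gy arrays alone, and its pass is read with that limit. The leukocyte list summed to 2.46 to 2.92 at 10 Gy and 2.33 to 3.90 at 0 Gy, and the erythrocyte list to 0.241 to 0.537 and 0.233 to 0.381. The median over all miRNAs tested was 0.16. The part of these cell types in the members' changes was not tested, and fewer cells of a type cannot be told apart from less RNA per cell.

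In serum, only miR-23a-3p and miR-24-3p were detected, on all 6 arrays. miR-23b-3p, miR-27a-3p and miR-27b-3p were detected on none of the 6. The miR-23b-3p probes thus gave little signal where miR-23a-3p was detected. Serum cannot show the reverse, nor how far the probes of miR-27a-3p and miR-27b-3p tell these apart, since miR-23b-3p and both miR-27 members were not detected. On 10 Gy replicate 3 the probes of miR-23a-3p reached 165 and 358 units of processed signal, while those of miR-23b-3p gave 8.83 and 4.22.

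miR-24-3p had levels of 0.08, -0.63, 1.42 and 0.48 at 10 Gy, against -2.04 and -1.67 at 0 Gy. All 10 Gy arrays were higher. The difference was 2.19 ± 0.52 (SE of the fit, n = 4 and 2, 4.58-fold), with a limma adjusted p of 0.0617 over 193 miRNAs, so it missed the threshold. Its probes differed by 2.12 and 2.26. Of the miRNAs tested in serum, 4.66% passed, 1.04% as rises. Doses did not overlap for 30.1%, with 9.84% higher at 10 Gy on every array. The change was 1.42 to 2.34 over the 4 scalings and 2.26 to 2.39 relative to the median of all miRNAs tested. As in intestine, the narrower range largely follows from subtracting the median. The change was 1.76 within slide row 1 and 2.57 within row 2. It passed with the slide row as a block (limma adjusted p = 0.0348), with normexp background correction (change 1.38, adjusted p = 0.000139), and without 10 Gy replicate 2 (0.028) or replicate 3 (0.0439). It did not pass in the other 17 of 19 settings, such as the replicate block (change 1.58, adjusted p = 0.243), or without 0 Gy replicate 1 (0.361) or replicate 2 (0.386).

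miR-23a-3p had levels of -0.81, -0.83, 1.01 and -0.81 at 10 Gy, against -0.90 and -1.08 at 0 Gy. At 10 Gy, 3 arrays lay close to the 0 Gy arrays and replicate 3 stood far above. The difference was 0.63 ± 0.55 (SE, limma adjusted p = 0.599) and 0.17 without that array. It was -0.15 without scaling. On the same array, miR-24-3p minus miR-23a-3p was 0.90, 0.20, 0.40 and 1.29 at 10 Gy, against -1.14 and -0.59 at 0 Gy. The doses did not overlap, and the means of 0.70 ± 0.49 (SD, n = 4) and -0.87 ± 0.39 (SD, n = 2) were not put to a test.

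**Figure D3:**
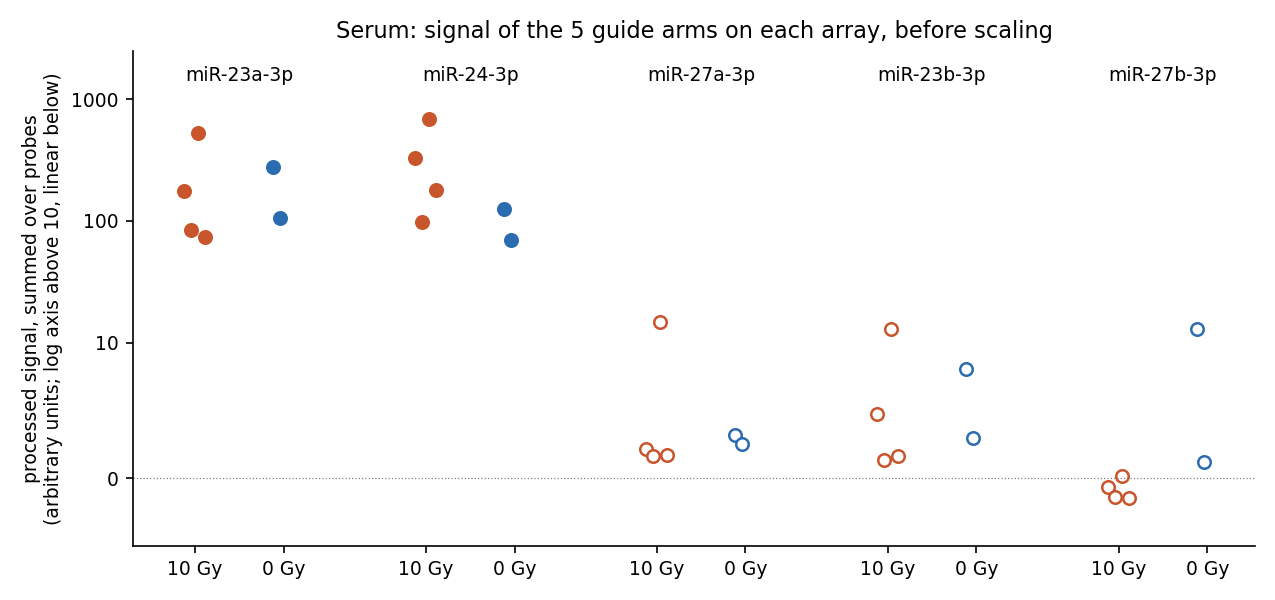
Processed signal of each member on the 6 serum arrays before scaling, summed over probes, on an axis that is logarithmic above 10 and linear below, at 10 Gy (left, orange) and 0 Gy (right, blue), with replicates from left to right. Filled points mark arrays with the miRNA detected, which were all 6 for miR-23a-3p and miR-24-3p and none for the other 3.

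Red cell miRNAs were lower at 10 Gy in serum. In human serum and plasma, miR-451a relative to miR-23a-3p is used as an index of red cell lysis, with miR-23a-3p as the stable partner. Here miR-451a minus miR-23a-3p was -3.82, -2.69, -4.05 and -3.82 at 10 Gy, against 0.44 and 0.45 at 0 Gy. miR-451a was detected on 1 of 4 arrays at 10 Gy and on both at 0 Gy, so most 10 Gy values are upper bounds. The difference between doses was -4.04, with an exact two-sided permutation p of 0.0667, the smallest that 4 arrays against 2 allow, and 0.156 after adjustment over the 7 tests. In the fit across all serum miRNAs, 2 of the 3 erythrocyte markers were tested and both fell, with changes of -3.41 for miR-451a and -1.46 for miR-486a-5p, the first limited by the floor. The erythrocyte list summed to 5.62 to 8.09 at 10 Gy and 17.6 to 20.6 at 0 Gy. Of the other lists, miR-375-3p of the epithelium list rose by 2.61 in serum. The other 9 markers of that list were detected on no serum array. The list sums of 0.732 to 2.06 at 10 Gy and 0.150 to 0.309 at 0 Gy thus largely repeat miR-375-3p. miR-222-3p of the endothelium list fell. It was detected on 1 of 4 arrays at 10 Gy and 2 of 2 at 0 Gy, so its change of -1.67 is limited by the floor. None of 4 smooth muscle and mesenchyme markers tested passed, nor did the 1 leukocyte marker tested. The part of red cell RNA in the members' values was not tested.

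In feces, 4 members were detected on all 8 arrays, and miR-27b-3p on 3 of 4 arrays at 10 Gy and 2 of 4 at 0 Gy. None of the 5 passed, where 7.54% of 491 miRNAs tested did, and all 5 overlapped between doses, where 29.1% of those miRNAs did not. miR-23a-3p had levels of -2.60, -2.03, -3.58 and -2.12 at 10 Gy, against -2.18, -3.78, -5.52 and -2.16 at 0 Gy. The groups overlapped, with 0 Gy replicates 2 and 3 low. The difference was 0.83 ± 0.74 (SE, n = 4 per dose, limma adjusted p = 0.45).

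miR-24-3p had levels of -2.90, -2.55, -3.55 and -2.37 at 10 Gy, against -2.85, -4.22, -5.31 and -2.46 at 0 Gy. miR-27a-3p had levels of -2.33, -1.87, -3.38 and -1.73 at 10 Gy, against -1.96, -3.41, -5.51 and -2.33 at 0 Gy. Both overlapped between doses and were low on the same 0 Gy arrays as miR-23a-3p. The differences were 0.87 ± 0.60 for miR-24-3p (SE, limma adjusted p = 0.33) and 0.98 ± 0.74 for miR-27a-3p (adjusted p = 0.373). For miR-27b-3p the levels were -5.32, -4.74, -6.46 and -4.43 at 10 Gy, against -4.90, -7.47, -7.79 and -4.78 at 0 Gy, where -7.79 is the floor. Its difference of 1.00 ± 0.78 (SE, adjusted p = 0.382) rests in part on arrays without detection. The probes of miR-27b-3p differed by 0.86 and -0.04 between doses, and the second was detected on no feces array.

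miR-23b-3p differed from the other 4 in its course over the feces arrays. Its levels were -2.90, -1.99, -3.16 and -2.33 at 10 Gy, against -1.89, -1.79, -3.96 and -2.55 at 0 Gy. It was high, not low, on 0 Gy replicate 2. The difference between doses was -0.04, with a 95% interval of -1.17 to 1.08 (limma adjusted p = 0.971). Without 0 Gy replicate 3, the differences were 0.13 for miR-23a-3p, 0.33 for miR-24-3p, 0.24 for miR-27a-3p, 0.46 for miR-27b-3p and -0.51 for miR-23b-3p. Over the 4 scalings they ranged from 0.18 to 0.83 for miR-23a-3p, 0.22 to 0.87 for miR-24-3p, 0.33 to 1.03 for miR-27a-3p and 0.29 to 1.00 for miR-27b-3p, against -0.69 to -0.04 for miR-23b-3p. The median of all miRNAs tested in feces was 0.15.

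On the same feces array, miR-23a-3p minus miR-23b-3p was 0.30, -0.04, -0.42 and 0.21 at 10 Gy, against -0.29, -1.99, -1.56 and 0.39 at 0 Gy. The doses overlapped, and the difference of 0.87 gave an exact two-sided permutation p of 0.257. miR-27a-3p minus miR-27b-3p was 2.91 ± 0.16 at 10 Gy and 2.93 ± 0.80 at 0 Gy (SD, n = 4 each, exact p = 0.971). The separation seen in intestine was not detectable in feces, where the spread at 0 Gy was wide.

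Over the 8 feces arrays, miR-23a-3p, miR-27a-3p, miR-27b-3p and miR-24-3p correlated with each other at r from 0.915 to 0.989, and miR-23b-3p with them at 0.479 to 0.740. Apart from members, miR-23a-3p was most like miR-429-3p (r = 0.998), miR-200a-3p (0.997) and miR-192-5p (0.995), all on the epithelium list. miR-27a-3p was most like miR-200b-3p (0.993), miR-148a-3p (0.992) and miR-30c-5p (0.991), and miR-24-3p like let-7i-5p (0.992), miR-29a-3p (0.987) and miR-429-3p (0.987). For miR-27b-3p they were miR-103-3p, miR-30a-5p and miR-107-3p (0.989 to 0.991). miR-23b-3p had its highest r with miR-3963 (0.853), let-7f-5p (0.828) and let-7a-5p (0.824). These 8 arrays share a slide and a scaling.

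Of the 10 epithelium markers 9 were tested in feces and none passed, with a median change of 0.75. Their summed scaled intensity was 2.08 to 5.90 at 10 Gy and 0.756 to 5.27 at 0 Gy. None of the smooth muscle, leukocyte, endothelium and erythrocyte markers passed in feces, where 1, 0, 0 and 1 of them were tested.

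**Figure D4:**
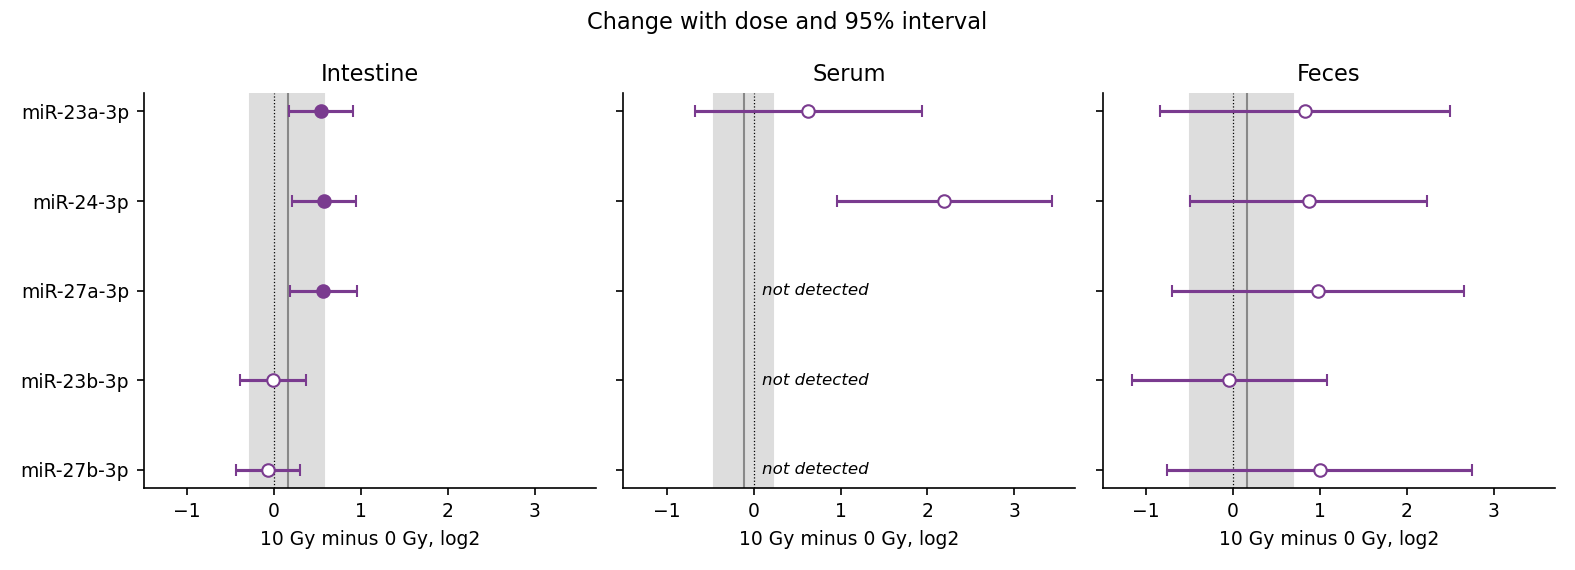
Change with dose of each member (10 Gy minus 0 Gy, log2) with its 95% interval from the limma fit, in intestine, serum and feces. Filled points passed at an adjusted p below 0.05, grey bands span the 25th to 75th percentile of all miRNAs tested in that sample type, and the grey line is their median. miR-23a-3p, miR-24-3p and miR-27a-3p in intestine are the filled points, and 3 members were not detected in serum.

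The change with dose was then compared between sample types in 1 fit of all 6 groups, scaled on the 81 miRNAs detected on all 22 arrays. None of 15 differences in dose effect passed for the members, where 10.9% of 749 miRNAs passed for feces minus intestine, 7.74% for serum minus intestine and 5.07% for feces minus serum. Some of the 15 could not show a dose effect of the member. In serum miR-23b-3p, miR-27a-3p and miR-27b-3p were not detected, and in feces miR-27b-3p lay at the floor on every array on this scale. Differences that use those values are set wholly or in part by the floor. Unadjusted, 1 of the 15 passed 0.05. It was miR-24-3p, whose dose effect in serum exceeded that in intestine by 1.70 ± 0.76 (SE, limma adjusted p = 0.22). An effect that passed in intestine and not in feces or serum was therefore not shown to differ between them.

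The order of levels was intestine, serum, feces for miR-23a-3p and miR-24-3p. Over the 5 members and both doses, 27 of 30 differences between sample types passed, but some of these are set in part by the floor. Among them are feces minus serum for miR-23b-3p at both doses and for miR-27a-3p at 10 Gy, since neither was detected in serum. On the scale of all 22 arrays, miR-23a-3p averaged -4.64 in feces, -1.02 in serum and 1.52 in intestine at 10 Gy, and -5.24, -1.63 and 1.09 at 0 Gy. miR-24-3p averaged -4.90 in feces, -0.32 in serum and 1.62 in intestine at 10 Gy, and -5.59, -2.49 and 1.16 at 0 Gy. The feces means include arrays at the floor of -6.41, 1 for miR-23a-3p and 2 for miR-24-3p, all at 0 Gy.

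All 5 members were lower in feces than in intestine at both doses, where 36.2% of all miRNAs tested were lower at 10 Gy and 35.2% at 0 Gy (58.9% and 59.5% in either direction). The differences at 10 Gy were -6.16 for miR-23a-3p, -5.46 for miR-23b-3p, -6.53 for miR-24-3p and -5.60 for miR-27a-3p, with SE of 0.48 to 0.55. miR-27b-3p lay at the floor on all 8 feces arrays on this scale, so its difference of -5.93 at 10 Gy is set by the floor. These differences kept their sign and passed under each of 10 other settings and without any 1 array, but their size did not keep. Without scaling, the median of all miRNAs moved by 0.77 at 10 Gy and 1.68 at 0 Gy.

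Serum was lower than intestine for all 5 members at both doses, where 35.4% of all miRNAs tested were lower at 10 Gy and 29.5% at 0 Gy (57.1% and 46.5% in either direction). For miR-23a-3p the difference was -2.54 ± 0.55 at 10 Gy and -2.72 ± 0.67 at 0 Gy (SE, limma adjusted p = 0.000594 and 0.00234). For miR-24-3p it was -1.95 ± 0.48 and -3.65 ± 0.59 (adjusted p = 0.00177 and 3.53e-05). After quantile normalization the 10 Gy differences were -0.69 and -0.07 and did not pass. The 3 members not detected in serum have only bounds. With this scaling they were, at 10 Gy, at least 12.4-fold (miR-23b-3p), 19.4-fold (miR-27a-3p) and 3.45-fold (miR-27b-3p) lower in serum. At 0 Gy they were at least 24.2-fold, 23.9-fold and 6.59-fold lower. These bounds do not hold for other processing. Over 10 other settings the fitted log2 differences at 10 Gy were as small as -2.62, -2.99 and -1.55. At 0 Gy they were as small as -3.20, -3.05 and -2.18. The bound compares the mean of the intestine arrays with the lowest signal of a probe well above background on the serum arrays.

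Between feces and serum, the members divided. miR-23a-3p was lower in feces, with differences of -3.62 at 10 Gy and -3.61 at 0 Gy (limma adjusted p = 2.26e-05 and 0.000262). miR-24-3p was lower too, with differences of -4.58 and -3.09 (adjusted p = 2.91e-07 and 0.000302). Of all miRNAs tested, 21.6% were lower at 10 Gy and 18.7% at 0 Gy (46.2% and 38.6% in either direction). Without scaling none of these 4 differences passed, and the summed signal of miR-23a-3p at 10 Gy was then 66.1 to 189 units in feces and 73.2 to 523 in serum. miR-23b-3p and miR-27a-3p were detected on every feces array and on no serum array, but a fold against the lowest measurable serum signal came out under 1, so no fold is given. Their fitted differences changed sign under normexp background correction at 10 Gy.

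**Figure D5:**
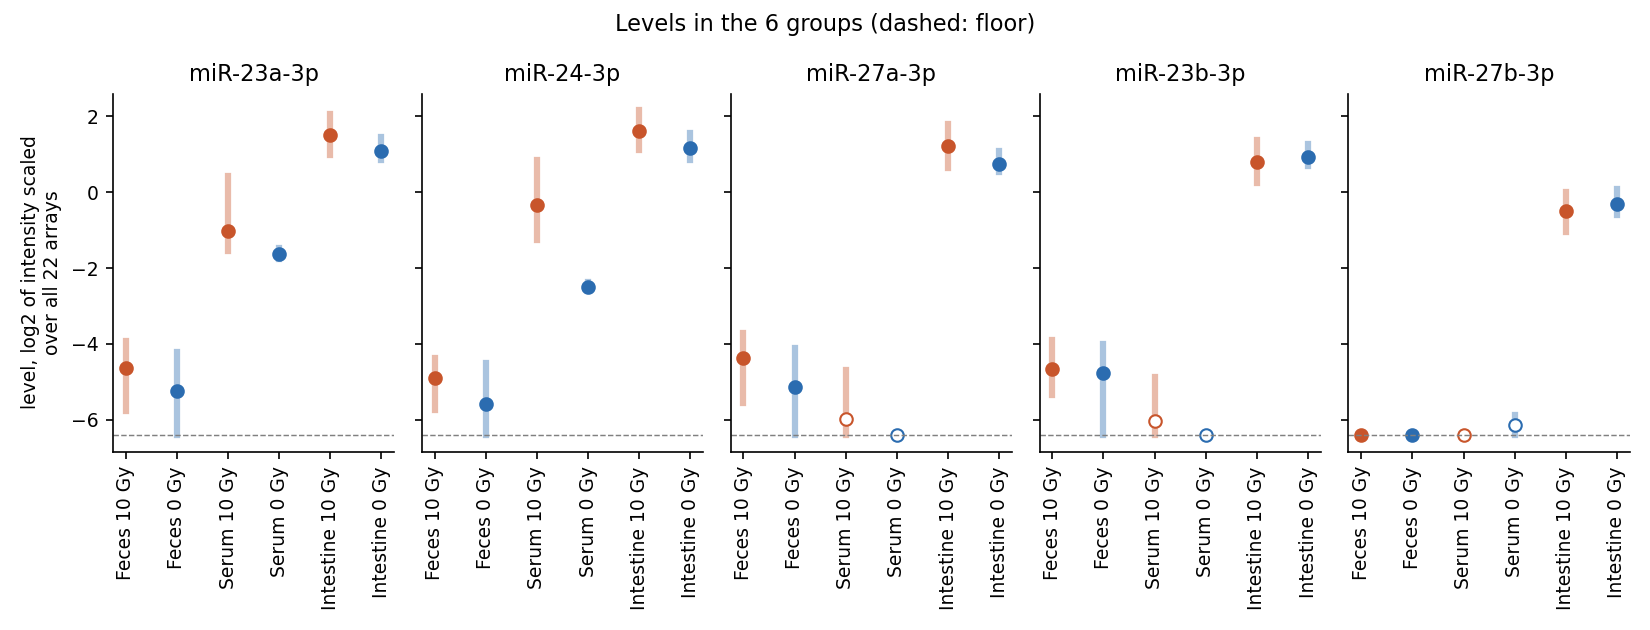
Level of each member in the 6 groups, as log2 of the intensity scaled over all 22 arrays, with the mean (point) and the range (bar) of 4 arrays, or 2 for serum at 0 Gy. Orange is 10 Gy and blue 0 Gy, open points mark groups with no detection, and the dashed line is the floor of -6.41. All 5 members are highest in intestine.

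The other products of the clusters were at or near background. Of the 6 passenger arms, miR-24-1-5p and miR-24-2-5p were detected in intestine, each on 2 of 4 irradiated arrays and no unirradiated one. The brighter probe of miR-24-1-5p gave 11.7 to 14.1 units at 10 Gy and 4.84 to 8.34 at 0 Gy, and that of miR-24-2-5p gave 10.3 to 16.5 and 2.97 to 7.39. These signals did not overlap between doses before scaling, where most miRNAs tested in intestine were higher at 10 Gy (median change 0.62, 186 rises of 335). The share of all miRNAs without such overlap was not counted. After scaling, the level of miR-24-1-5p was -5.27 ± 0.37 at 10 Gy and -5.73 ± 0.13 at 0 Gy. For miR-24-2-5p it was -4.96 ± 0.14 and -5.72 ± 0.15 (SD, n = 4 each), where the floor is -5.79. Neither arm met the filter for testing. miR-23a-5p was detected in feces, on 2 of 4 arrays at 0 Gy and none at 10 Gy. miR-23b-5p, miR-27a-5p and miR-27b-5p were detected on no array.

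The hairpins opposite the miR-24 genes give miR-3074-5p, miR-3074-1-3p and miR-3074-2-3p. Of these 3, only miR-3074-5p was detected, on 1 feces array at 0 Gy. miR-128-3p, whose seed overlaps that of miR-27 shifted by 1 base, was detected on all 8 intestine arrays and on no other. Its level was -4.03 ± 0.24 at 10 Gy and -4.19 ± 0.21 at 0 Gy (SD, n = 4 each), a difference of 0.17 that did not pass (limma adjusted p = 0.504).
miR-128-3p: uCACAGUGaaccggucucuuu
Capitals again mark bases 2 to 8, which here begin with the bases that end the seed of miR-27a-3p.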

How the data were processed

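The authors deposited spot intensities on a linear scale from Agilent Feature Extraction 11.5, which subtracts background and applies no scaling between arrays, per the file headers. Their series table held equal values within 1% and served as an alternative. Other deposited columns were flags with no unit of measurement, per the file headers.

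Here, signals were averaged over spots not marked as outliers, summed over probes, divided by each array's 75th percentile among the miRNAs that every array of a sample type detected (268 intestine, 121 serum and 326 feces miRNAs), floored at the median of the arrays' lowest detected values and taken to log2. limma 3.58.1 in R 4.3.3 (lmFit, eBayes) compared doses over miRNAs detected on a number of arrays no lower than the size of the smaller group, with Benjamini-Hochberg adjustment and a threshold of 0.05. Single differences were put to exact permutation tests. The fits were tested on simulated data. The number of arrays limits the precision.

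Members, marker lists and tests were chosen with earlier results of these data known. Besides members, the text names their cluster partners, up to 4 passing markers per list and sample type, miR-451a, and the 3 miRNAs with the highest Pearson r to each member. The choice to name miR-126a-3p came after seeing its values.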

Additional observations from a re-analysis of the deposited data

Results flagged for a closer look

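In groups of 4 arrays, the highest or lowest value was set against the others by Dixon's test at its 95% critical value. Of 37 such groups 2 passed it, and chance alone gives about 1 in 20. The first is miR-23a-3p in serum at 10 Gy, where replicate 3 had a level of 1.01 and its gap to the nearest array was 0.988 of the range. The second is miR-27a-3p minus miR-27b-3p in intestine at 10 Gy, where replicate 1 had a difference of 1.84 and a gap of 0.846 of the range.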

How the results depend on the processing

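Of 3 rises in intestine (miR-23a-3p, miR-24-3p, miR-27a-3p), none passed in 5 of 19 other settings, each with 0 members passing: the 75th percentile over all miRNAs, no detection filter, within slide row 1, within slide row 2, and 1 fit of all 6 groups. miR-23a-3p also lost its call after quantile normalization (0.36). Leaving out 1 array at a time left 0 to 3. miR-23b-3p passed as a rise without scaling (0.45). In serum 0 members passed, and 1 (miR-24-3p) with normexp background correction and with the slide row as a block. Leaving out 1 array gave 0 to 1. In feces 0 passed in every setting. Among the 15 differences in dose effect, 0 passed, 1 without scaling, 2 with normexp and 1 with array weights. Without scaling, miR-23b-3p gave -1.14 for feces minus intestine. For feces minus serum at 10 Gy, miR-27b-3p gave 1.19 without scaling and 1.51 with the brightest probe, and normexp gave -0.73 for miR-23b-3p, -0.73 for miR-27a-3p and -0.67 for miR-27b-3p, and at 0 Gy -0.23 for miR-23b-3p. The causes were not tested. The 27 of 30 level differences that passed became 24 to 28 over 10 settings. The within-array tests could not pass after adjustment in any setting, given the number of arrays. miRNAs called over all those tested ranged from 32 to 199 in intestine (140 in the report), 0 to 24 in serum (9) and 0 to 171 in feces (37), and without 1 array from 94 to 148, 3 to 16 and 2 to 137, where the last pair is without 0 Gy replicate 1 and without 0 Gy replicate 4. In feces 17 were higher and 20 lower, against 1 and 26 without scaling. Replicate numbers were not taken to pair the arrays: deviations of same-numbered arrays correlated at -0.56 to 0.44 in intestine and -0.43 to 0.40 in feces, and at 0.28 and 0.44 in the 2 serum pairs, too few to judge, and 2 of 8 and 3 of 8 arrays correlated best with their own number. With a replicate block the members passing were 3 in intestine, 0 in serum and 0 in feces, and all calls numbered 134, 0 and 39. The scanner software's total signal per miRNA, an alternative chosen after seeing the data, gave 145, 10 and 38. Signal over background limits serum, where 3 of 5 members had no detection, and so do its 2 arrays at 0 Gy.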
